A study of Mus with 18 samples.

Results

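The comparison described here is that of lens epithelial cells (LECs) with and without a lens-specific deletion of Fosb, in capsules taken at once after the fiber cells were removed. It holds 6 of the 18 libraries of the study, 3 labelled FosB null (FosBcKO) and 3 labelled wild type (WT), all at 0 h. All 55416 gene IDs of the deposited count tables were read, and the 14556 with enough counts in these 6 libraries were tested. The question the comparison answers is which genes differed between the genotypes before injury.

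The labels give the strain as C57BL/6 for all groups, and the mice were of both sexes and aged 3 to 5 months. FosBcKO mice carried a floxed Fosb allele (Fosb tm1.1Nes), in which loxP sites flank the second and the third exon, and the Cre transgene MLR10, which is driven by a modified promoter of the alpha-A crystallin gene and acts in the lens. MLR10 was made in FVB/N mice and later backcrossed to C57BL/6. For WT, the labels name neither Cre nor the floxed allele. Loss of Fosb, the Cre transgene and any other sequence that travelled with the modified alleles therefore cannot be told apart in this comparison. Each library pooled 5 lens capsules with their attached LECs. At 0 h the capsule was taken directly after the fiber cells had been removed, and at 6 h the cells had stayed in the living eye for that long. Surgery on the second eye of each animal followed that on the first by 6 h, and both were then collected, so the 0 h and the 6 h capsules came from the same mice. The study also has 3 libraries per time from mice with a systemic Egr1 knockout (Egr1KO), which serve below only as further animals without the Fosb deletion. Their Egr1 allele (Egr1 tm1Jmi) has a neo cassette in an exon, and the study's methods name for them a Jackson Laboratory stock of mixed background, which the strain label does not give. P-values measure the spread between these pools.

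LECs form a single sheet under the anterior lens capsule, where they divide slowly and give rise to the fiber cells. FosB is a member of the AP-1 family of transcription factors, which bind DNA as dimers of a Fos and a Jun protein. In many tissues Fosb behaves as an immediate early gene, with little RNA in resting cells and a fast, transient rise after a stimulus, and alternative splicing of its RNA gives a shorter and more stable protein, ΔFosB.

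The files name genes by Ensembl ID and do not pair the IDs with gene symbols. The level of Fosb in each library, the markers of LECs and of other cells of the eye, and gene lists by function are therefore not analysed here, and FosBcKO below means the libraries so labelled. For the same reason 4 genes are given by ID, and the rest by their counts and levels. In bulk RNA, fewer cells of a type and less RNA per cell cannot be told apart.

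The WT libraries at 0 h held 10276885 to 11249342 read pairs counted in genes, and the FosBcKO libraries 9644979 to 11204970. The number of genes with at least 1 count was 20427 to 21041 in WT and 19121 to 21139 in FosBcKO. Read pairs outside annotated genes made up 15.2% to 19.8% of all pairs in WT and 8.03% to 20.9% in FosBcKO (exact permutation test, two-sided, p = 0.4, n = 3 and 3; the smallest p this design allows is 0.1). The FosBcKO range was set by replicate 2, at 20.9%. FosBcKO replicates 1 and 3, at 10.5% and 8.03%, lay below every WT library. The first principal component of the 6 libraries carried 42.4% of the variance and did not separate the genotypes. WT replicate 2 stood apart on it, at -79.4 against -12.2 to 41.5 for the other libraries. The common biological coefficient of variation was 0.272.

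Few genes differed between uninjured FosBcKO and WT LECs. Of the 14556 tested, 43 changed by more than 2-fold at a false discovery rate (FDR) of at most 0.05, which is 0.295% of them. FosBcKO was higher for 27 (0.185%) and lower for 16 (0.11%). These calls come from the exact test of edgeR on the 6 libraries, with FDR by the Benjamini-Hochberg method. The median log2 fold change over all tested genes was -0.0069 after scaling, a step that by itself centres the libraries on each other. A further 14 genes passed the FDR threshold with a change of 2-fold or less.

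All 43 genes had FosBcKO and WT libraries that did not overlap in CPM (counts per 1000000 counted pairs). Across all tested genes the groups did not overlap for 14.2%, with FosBcKO above WT for 7.63% and below it for 6.57%. The median log2 fold change was 3.58 for the genes that were higher and -2.01 for those that were lower. For 4 of the 43, all 3 libraries of a group had 0 counts, and with these genes set to the bound that 3 counts per library would give, the medians were 3.03 and -2.01. Among the higher genes, 10 had a log2 fold change of 4 or more and 8 had one under 2. Among the lower genes, the same sizes of change were reached by 3 and not reached by 8.

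The number of calls depended on the test and on single libraries. The quasi-likelihood F-test of edgeR called 11 genes (0.0756%), 8 higher (0.055%) and 3 lower (0.0206%), all among the 43. DESeq2 called 42 (0.289%), 22 higher (0.151%) and 20 lower (0.137%), of which 32 were among the 43. Without FosBcKO replicate 1 the exact test called 27 genes, and without FosBcKO replicate 3 it called 21. Without FosBcKO replicate 2, the library with 20.9% of its pairs outside genes, it called 44 higher and 95 lower genes. Whether that share and the number of calls were related was not tested. Without WT replicate 2, the library that stood apart, it called 32 genes, 19 higher and 13 lower, of which 25 were among the 43.

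**Figure D1:**
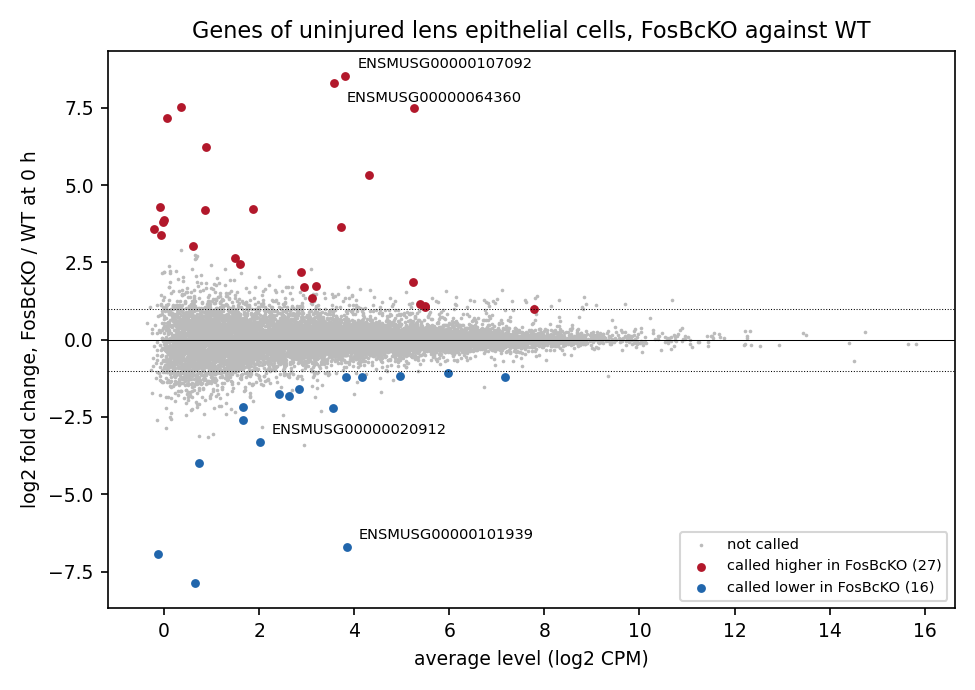
Log2 fold change of FosBcKO over WT at 0 h (vertical axis) against the average level in log2 CPM (horizontal axis) for the 14556 tested genes, 1 point a gene. The 27 genes called higher (red) and 16 called lower (blue) lie at low to moderate levels. Some uncalled genes (grey) changed as much at the same level, and dotted lines mark a 2-fold change.

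The genes that differed were of low to moderate abundance. In the FosBcKO libraries, the 27 higher genes had mean levels of 1.25 to 293 CPM, with a median of 11.5 CPM. In the WT libraries, the 16 lower genes had mean levels of 1.45 to 200 CPM, with a median of 9.91 CPM. The high levels did not come from a single library. The library with the largest share of the summed CPM of the high group held a median of 40.5% of it for the higher genes and 40.8% for the lower genes, where equal libraries would each hold 1 part in 3. For a single gene this share reached at most 51.2% in the higher group and 57.3% in the lower. Added up, the higher genes took 775 to 835 CPM of each FosBcKO library and 252 to 283 CPM of each WT library. The lower genes took 164 to 193 CPM in FosBcKO and 451 to 494 CPM in WT.

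The gene with the highest fold change among those with an average level of at least 1 log2 CPM was ENSMUSG00000107092. Its counts were 252, 213 and 386 in the FosBcKO libraries and 1, 0 and 1 in the WT libraries at 0 h. It was thus present in every FosBcKO library and at the edge of detection in WT. Mean levels were 27.3 ± 8.74 CPM in FosBcKO and 0.0643 ± 0.0557 CPM in WT (SD, n = 3 each). The fitted log2 fold change was 8.53 (SE 0.51, edgeR exact test FDR = 5.19e-41). From the summed counts the ratio was 437, with a 95% exact Clopper-Pearson interval of 120 to 3611 that covers counting error only.

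ENSMUSG00000064360 showed the same contrast. Its counts were 299, 226 and 209 in FosBcKO and 0, 2 and 0 in WT. Mean levels were 23.5 ± 3.21 CPM and 0.0593 ± 0.103 CPM (SD, n = 3 each), and the log2 fold change was 8.30 (SE 0.52, edgeR exact test FDR = 2.81e-45). The ratio of summed counts was 377, with an interval of 103.9 to 3115. The FosBcKO libraries of this gene lay closer together than those of the gene before.

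In the other direction, ENSMUSG00000101939 had 324, 264 and 299 counts in WT and 4, 1 and 3 in FosBcKO. It was near the edge of detection in every FosBcKO library. Mean levels were 27.9 ± 3.92 CPM in WT and 0.251 ± 0.131 CPM in FosBcKO (SD, n = 3 each). The log2 fold change was -6.70 (SE 0.35, edgeR exact test FDR = 1.36e-47). WT exceeded FosBcKO 108-fold by summed counts, with an interval of 54.6 to 251.

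ENSMUSG00000020912 was also lower in FosBcKO, with more spread between libraries. Its counts were 125, 39 and 56 in WT and 13, 4 and 5 in FosBcKO, so the groups did not overlap and WT replicate 1 stood well above the other WT libraries. Mean levels were 6.96 ± 4.45 CPM and 0.687 ± 0.412 CPM (SD, n = 3 each). The log2 fold change was -3.31 (SE 0.61, edgeR exact test FDR = 0.000576). Without WT replicate 1 the log2 fold change was -2.65 and the gene was no longer called, and the quasi-likelihood F-test of edgeR gave an FDR of 0.124.

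**Figure D2:**
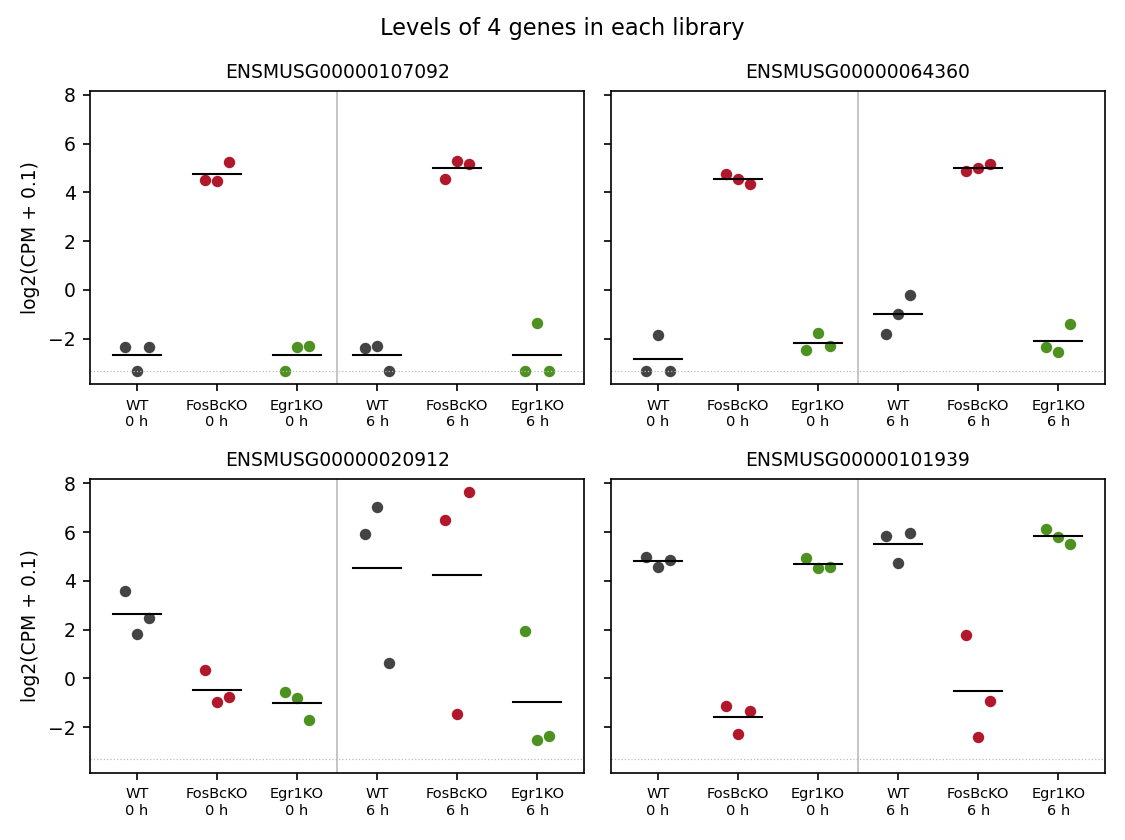
Levels of the 4 genes given by ID, as log2(CPM + 0.1), in each of the 18 libraries by group (WT grey, FosBcKO red, Egr1KO green; black bars are means of 3 libraries, dotted lines mark a count of 0). FosBcKO stands apart from WT and Egr1KO at both times for ENSMUSG00000107092, ENSMUSG00000064360 and ENSMUSG00000101939, whereas the 6 h libraries of ENSMUSG00000020912 spread widely within WT and FosBcKO.

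A part of the called genes was detected in essentially one genotype. Over all gene IDs, 10 had at most 3 counts in each WT library and at least 10 in each FosBcKO library at 0 h, and all 10 were among the called genes. The reverse held for 4 genes, of which 2 were called. A filter that asks for counts in 3 libraries passes such genes only through the group in which they are high.

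Of the higher genes, 2 had no count in WT. The first had 23, 19 and 26 counts in FosBcKO, and with 3 counts taken as the floor in each WT library it was at least 7.74-fold higher. The second had 25, 10 and 19 counts and was at least 6.04-fold higher. Both were thus detected in every FosBcKO library at low depth. Of the lower genes, 2 had no count in FosBcKO. Their WT counts were 18, 42 and 28 for the first, at least 9.41-fold lower in FosBcKO, and 13, 14 and 19 for the second, at least 4.99-fold lower.

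The other higher genes of large fold change covered a wide range of levels. The most abundant of them had 774, 751 and 820 counts in FosBcKO and 3, 5 and 5 in WT, a log2 fold change of 7.49, with FosBcKO libraries that nearly coincided. Another had 460, 280 and 461 counts in FosBcKO and 8, 13 and 9 in WT, a log2 fold change of 5.34. A gene with 243, 165 and 338 counts in FosBcKO had 24, 17 and 20 in WT, so it was clearly present in both genotypes and differed in level, with a log2 fold change of 3.64. At the far end, the most abundant of the 27 had 3294, 2795 and 3050 counts in FosBcKO and 1339, 1918 and 1412 in WT, a log2 fold change of 1.01 that barely passed the fold minimum.

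Most of the lower genes were present in both genotypes. The most abundant had 1107, 696 and 922 counts in FosBcKO and 1880, 2285 and 2230 in WT, a log2 fold change of -1.20. One with 61, 22 and 46 counts in FosBcKO had 249, 179 and 176 in WT, a log2 fold change of -2.21. One with 0, 0 and 5 counts in FosBcKO had 32, 38 and 19 in WT, a log2 fold change of -4.00 (SE 1.05). The genes of this and the preceding paragraph that have no ID were picked after their values were seen.

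**Figure D3:**
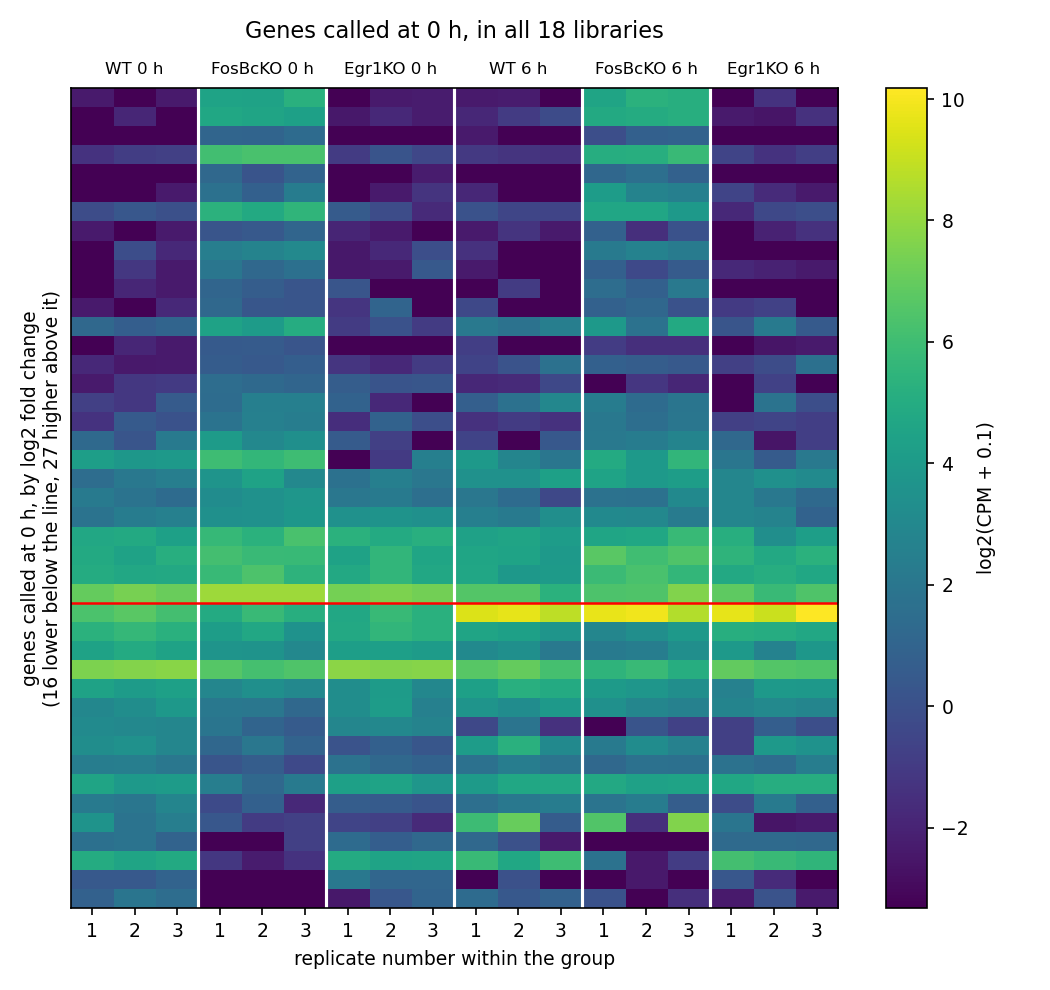
Levels of the 43 genes called at 0 h, as log2(CPM + 0.1) by colour, with genes in order of their 0 h log2 fold change (27 higher above the red line, 16 lower below it) and the 18 libraries in 6 groups of 3. The 10 genes with a log2 fold change of 4 or more form the top band, brighter in the FosBcKO columns at 0 h than in those of WT, and most of the 16 lower genes are of similar colour in FosBcKO and WT at 6 h.

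The 3 Egr1KO libraries at 0 h give further uninjured LECs without the Fosb deletion. Of the 27 higher genes, 24 were higher in each FosBcKO library than in all 6 WT and Egr1KO libraries, which held for 2.86% of all tested genes. Of the 16 lower genes, 11 were lower in each FosBcKO library than in all 6, against 1.82% of all tested genes. These 0 h counts share the WT libraries and FosBcKO libraries that made the calls. All 43 genes already lay beyond every WT library, so the shares of all tested genes are not a like comparison. Of the 1111 tested genes with every FosBcKO library above every WT library, 416 also lay above every Egr1KO library. Of the 957 with every FosBcKO library below every WT library, 265 also lay below every Egr1KO library. ENSMUSG00000107092 had 0, 1 and 1 counts in Egr1KO, ENSMUSG00000064360 had 1, 2 and 1, and ENSMUSG00000101939 had 378, 239 and 227, all near the WT values. ENSMUSG00000020912 had 7, 5 and 2, which lay near FosBcKO and below every WT library. A lower gene with 842, 1173 and 717 counts in WT had 346, 537 and 363 in FosBcKO and 332, 561 and 370 in Egr1KO. One with 100, 125 and 75 in WT had 24, 38 and 19 in FosBcKO and 12, 17 and 11 in Egr1KO. Another had 48, 43 and 71 in WT, 8, 16 and 2 in FosBcKO and 18, 14 and 10 in Egr1KO. For these lower genes too the knockouts lay together, with every Egr1KO library below every WT library in CPM. Their difference from WT was thus not particular to FosBcKO. These examples were picked after their values were seen.

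The 6 h libraries were not used for the calls and show the same genotypes again, in capsules of the same mice. At 6 h, 874 of 16155 tested genes differed between FosBcKO and WT (5.41%), 724 higher (4.48%) and 150 lower (0.929%), by the same test and thresholds. Of the 43 genes called at 0 h, 35 passed the filter on low counts at 6 h, and 17 of these were called again in the same direction. None was called in the opposite direction.

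More than 1 in 2 of the higher genes tested at 6 h were called there too. Of the 27, 22 were tested at 6 h, 21 had a log2 fold change above 0 and 14 were called higher. Their median log2 fold change was 2.53 at 6 h, against 3.00 at 0 h for the same 22 genes and 0.00436 over all genes tested at 6 h. For 14 of the 22 every FosBcKO library at 6 h lay above every WT library, against 9.99% of all genes tested at 6 h. For 13 every FosBcKO library also lay above the Egr1KO libraries at 6 h, against 5.64% of all genes. Of the 10 genes with a log2 fold change of 4 or more at 0 h, 7 were tested at 6 h and all 7 were called there. Of the 15 tested genes with a smaller change, 7 were called. Genes with few WT counts pass the filter at 6 h only where FosBcKO is high, so calls among them were favoured in advance. Without a filter, 24 of all 27 had a higher mean CPM in FosBcKO at 6 h, and 16 did not overlap with WT on that side.

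Most of the lower genes were not called at 6 h, and no test compared them with the higher genes. Of the 16, 13 were tested at 6 h, 10 had a log2 fold change below 0 and 3 were called lower. Their median log2 fold change was -0.51 at 6 h and -1.84 at 0 h. For 5 of the 13 every FosBcKO library lay below every WT library, against 11.8% of all genes tested at 6 h. For 2 every FosBcKO library also lay below the Egr1KO libraries, against 1.47%. Without a filter, 13 of all 16 had a lower mean CPM in FosBcKO, and 6 did not overlap with WT on that side. Across the 14202 genes tested at both times, 59.8% had the same sign at 0 h and 6 h.

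ENSMUSG00000107092 had 270, 454 and 414 counts in FosBcKO and 1, 1 and 0 in WT at 6 h, a log2 fold change of 8.89 (edgeR exact test FDR = 6.97e-40). For ENSMUSG00000064360 the counts were 343, 365 and 414 in FosBcKO and 2, 4 and 8 in WT, a log2 fold change of 6.26 (FDR = 3.30e-42 by the same test). Both genes were again near the edge of detection in WT. ENSMUSG00000101939 had 39, 1 and 5 counts in FosBcKO and 599, 262 and 656 in WT, a log2 fold change of -5.16 (FDR = 3.23e-06 by edgeR). FosBcKO replicate 1 stood above the other FosBcKO libraries, and all 3 lay below every WT library.

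For ENSMUSG00000020912 the 6 h counts were 1061, 3 and 2299 in FosBcKO and 644, 1300 and 15 in WT. Libraries of 1 genotype thus differed by more than the genotypes did, and the log2 fold change of 0.60 was not called (edgeR exact test FDR = 0.934). Its difference at 0 h was not seen in the later libraries, in which its level ranged from 3 to 2299 counts within a group.

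**Figure D4:**
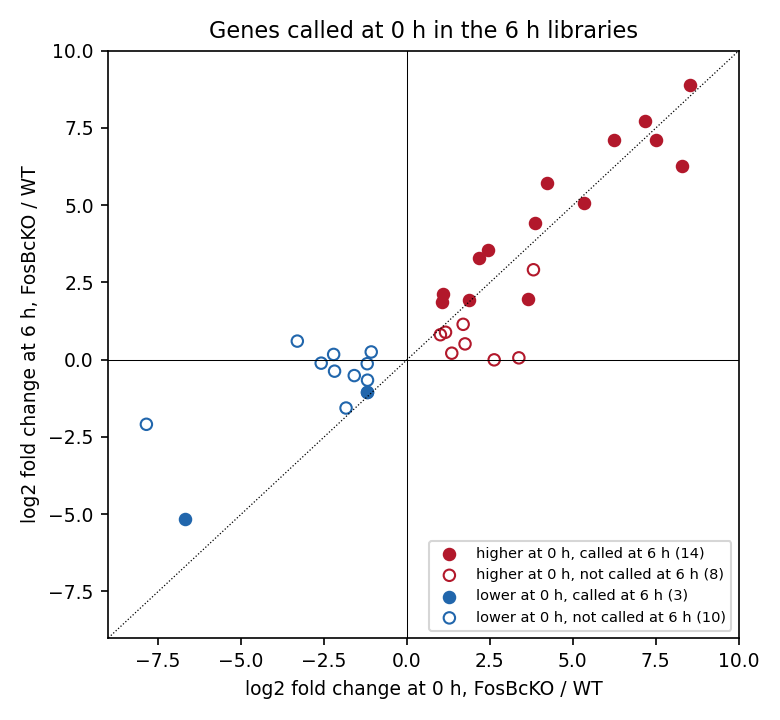
Log2 fold change of FosBcKO over WT at 6 h (vertical axis) against that at 0 h (horizontal axis) for the 35 genes called at 0 h that were tested at 6 h; filled points were called at 6 h, and the dotted line marks equal values. Of the 22 higher genes (red) 14 are filled, and of the 13 lower genes (blue) 3 are filled while most lie near 0 at 6 h.

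Among the 10 genes that were near absent in WT at 0 h, 8 again had at least 10 counts in each FosBcKO library at 6 h, and 5 again had at most 3 counts in each WT library. Both held for 4 of the 10. For another of the 10 the 6 h libraries overlapped, with 19, 17 and 15 counts in FosBcKO and 6, 10 and 33 in WT. In Egr1KO, 7 of the 10 had at most 3 counts in each library at 0 h and 6 had so at 6 h. Over all gene IDs, 28 genes were near absent in WT and present in FosBcKO at 6 h, and 2 showed the reverse.

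Whether the difference between FosBcKO and WT itself changed from 0 h to 6 h was tested as an interaction over all 18 libraries by the quasi-likelihood F-test of edgeR. Of 17469 genes, 0 passed an FDR of 0.05 and 1171 (6.7%) had an unadjusted p under 0.05, whereas DESeq2 called 40. In a fit of the 12 WT and FosBcKO libraries with the replicate number as a block across times within each genotype, 50 genes were called. The labels do not say whether libraries of the same number came from the same mice. Without WT replicate 2 at 0 h the quasi-likelihood test called 24 genes, and without FosBcKO replicate 2 at 0 h it called 2. Among the 43 genes called at 0 h, 7 higher and 5 lower had an unadjusted p under 0.05. These genes were chosen for a large difference at 0 h, and the interaction uses the same 0 h libraries. That choice alone favours a smaller difference at 6 h, so their interactions cannot be set against those of all genes. The smallest FDR among the 43 was 0.0890, for the lower gene with 249, 179 and 176 counts in WT and 61, 22 and 46 in FosBcKO at 0 h. At 6 h this gene had 173, 260 and 282 counts in WT and 330, 242 and 264 in FosBcKO, so the groups overlapped and the 6 h log2 fold change was 0.17 against -2.21 at 0 h. Its interaction was 2.31 on the log2 scale and did not pass the threshold. It did pass with the replicate block (2.38, edgeR quasi-likelihood FDR = 0.0459), by DESeq2 (2.33, FDR = 8.23e-05), with no filter on low counts (2.29, edgeR FDR = 2.05e-06) and without WT replicate 2 at 0 h (2.40, edgeR FDR = 0.0225). Whether the genotype difference of this gene changed between the times thus depended on the fit. Of the genes given by ID, ENSMUSG00000064360 had an interaction of -2.12 on the log2 scale (unadjusted p = 0.0217, FDR = 0.658 by edgeR). Its WT counts were 0, 2 and 0 at 0 h and 2, 4 and 8 at 6 h. ENSMUSG00000020912 had a larger interaction, 3.83 (unadjusted p = 0.130, FDR = 0.805 by edgeR). With no filter on low counts, 3 of the 43 genes passed. ENSMUSG00000020912 was 1 of them (3.81, edgeR quasi-likelihood FDR = 4.77e-16), although its 6 h libraries spread widely. So was the lower gene with 842, 1173 and 717 counts in WT at 0 h (1.23, FDR = 0.00317 by that test).

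The calls were recomputed under 16 other settings, among them other tests, scalings, filters and the omission of each library in turn. Of the 43 genes, 6 were called under all 16, 4 higher and 2 lower, while 10 higher and 6 lower genes were called under at most 8. The 4 higher genes had log2 fold changes of 5.34 to 8.53 and were all called at 6 h. The 2 lower genes had log2 fold changes of -6.70 and -2.21, and the first was called at 6 h. ENSMUSG00000107092, ENSMUSG00000064360 and ENSMUSG00000101939 were called under all 16, and ENSMUSG00000020912 under 13.

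**Figure D5:**
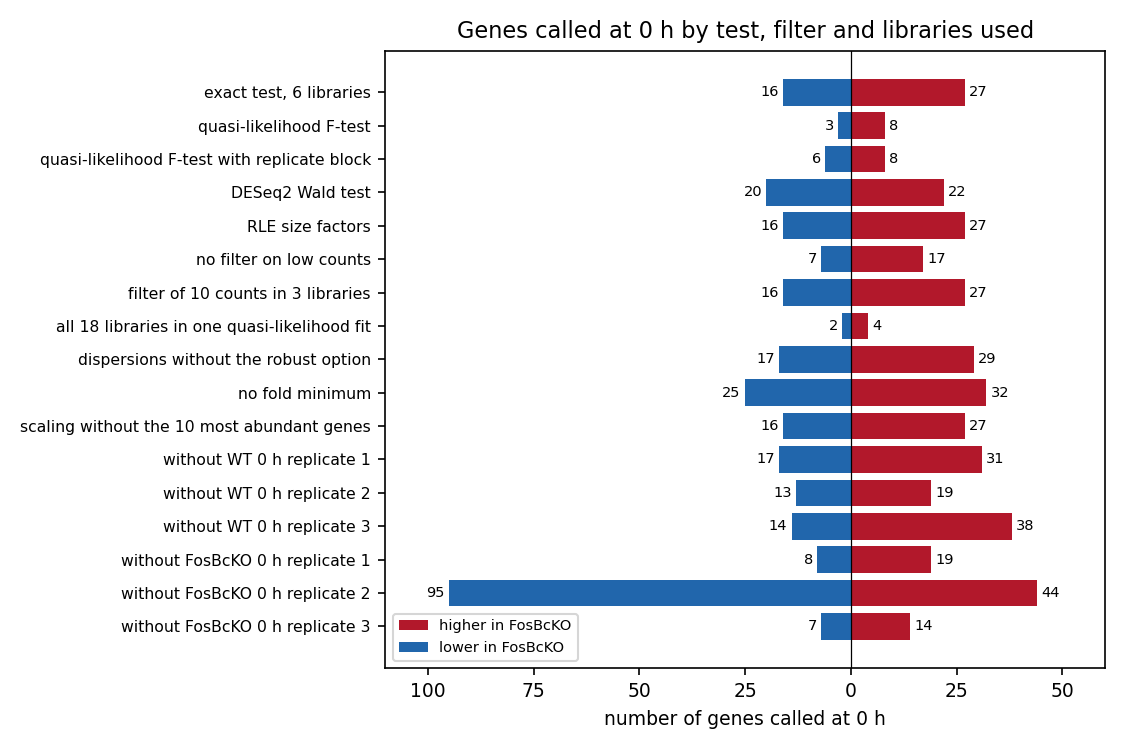
Number of genes called higher (red, to the right) and lower (blue, to the left) in FosBcKO at 0 h under each test, scaling, filter and choice of libraries, with the number at each bar. The exact test on 6 libraries gives 27 and 16, the quasi-likelihood tests give fewer, and the omission of FosBcKO replicate 2 gives 44 and 95.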

How the data were processed

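RNA of LECs on lens capsules was sequenced from 18 libraries in 6 groups of 3, and groups and replicate numbers were read from the labels. After ribodepletion, the authors built stranded libraries (Takara SMARTer Stranded Pico v2), sequenced them from both ends, aligned the reads with Hisat2 and assigned the pairs to Ensembl genes with HTSeq-count (union mode). The study's methods name the assembly GRCm38 and the submitters' processing notes GRCm39, and the strand setting of the counting is not given in the sources used here. The deposited tables hold raw, unnormalized counts, 1 value a gene. HTSeq-count tallied pairs that aligned to several places, and pairs that overlapped several genes, apart from the gene counts. Near-identical gene copies and overlapping genes are therefore uncertain. Since no molecular identifiers were stated, intervals and floors cover counting error only. HTSeq's summary lines, which name no gene, were left out, and pairs outside genes made up 15.2% to 19.8% (WT) and 8.03% to 20.9% (FosBcKO) of pairs at 0 h.

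FosBcKO was compared with WT at 0 h, and for reference at 6 h, by the exact test of edgeR 4.0.16 in R 4.3.3, which the study's methods name, on the 6 libraries of each time with filterByExpr, scaling by TMM and robust dispersions. Genes were called at an FDR of at most 0.05 and a change over 2-fold. Standard errors were derived from the quasi-likelihood fit, as the absolute log2 fold change over the square root of its F statistic. They and the exact test FDR printed beside them thus come from different models. CPM are counts per 1000000 counted pairs. DESeq2 1.42.0, other scalings, filters and fits and the omission of each library were tried as alternatives. The scripts were tested on simulated data.

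None of the 55416 IDs was found in the RefSeq table of genes (0 matches), so gene names, the level of Fosb, marker and gene lists and promoter sequences were not used here. The genes given by ID are the 2 highest and 2 lowest log2 fold changes among called genes with an average of at least 1 log2 CPM and no overlap between groups. The comparison, the lists and this rule were chosen with earlier results of these data known.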

Additional observations from a re-analysis of the deposited data

How the results depend on the processing

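The number of genes called at 0 h (43, 27 higher and 16 lower) was 11 (8 and 3) by the quasi-likelihood F-test, 24 (17 and 7) with no filter on low counts and 6 (4 and 2) in a fit of all 18 libraries, and with no fold minimum 25 were lower. Leaving out 1 library at a time gave 21 to 139 genes, 14 to 44 higher and 7 to 95 lower. It stayed within 1.5 times under the other scalings, the filter of 10 counts, DESeq2 and dispersions without the robust option. The deviations of same-numbered FosBcKO and WT libraries at 0 h had correlations of 0.0762, 0.167 and 0.0400. Those of libraries with different numbers ranged from -0.223 to 0.206. No pairing was thus seen, but these few values cannot exclude one. A quasi-likelihood fit with the replicate block called 14 genes, 8 higher and 6 lower. At 6 h the count of 874 became 437 by the quasi-likelihood F-test and 86 with the replicate block, and 722 to 1205 with 1 library left out. The interaction, 0 genes, became 50 with the replicate block within genotype, 406 with no filter, 40 by DESeq2 and 0 to 24 with 1 library left out. Genes called at both times, 17, became 11 by the quasi-likelihood F-test and 7 with the replicate block. They numbered 13 to 19 with 1 of the 6 h libraries left out. The omission of 0 h libraries was not tried for this count. No named gene reversed. A scaling without crystallin and mitochondrial genes was not run, since the IDs have no names; a scaling without the 10 most abundant genes, chosen after seeing the data, called 43. The cause of these differences was not tested. At the depth of these libraries, a gene at 1 CPM gave about 10 counts.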

Other observations

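A pair of genes given by ID went in opposite directions at similar levels, which was noticed after their values were seen. The counts of ENSMUSG00000064360 and ENSMUSG00000101939 added up to 324, 266 and 299 in WT and to 303, 227 and 212 in FosBcKO at 0 h. The sums were 27.9 ± 3.82 CPM and 23.7 ± 3.25 CPM (SD, n = 3 each). At 6 h they were 601, 266 and 664 in WT and 382, 366 and 419 in FosBcKO. With ENSMUSG00000107092 in place of ENSMUSG00000064360 the 0 h sums were 27.9 ± 3.98 CPM in WT and 27.6 ± 8.78 CPM in FosBcKO (SD, n = 3 each). The sums of FosBcKO and WT were compared by exact permutation tests (n = 3 and 3, 20 arrangements). For the first sum the exact permutation test gave p = 0.2 at 0 h and p = 0.4 at 6 h. With ENSMUSG00000107092 the exact permutation test gave p = 0.9 at 0 h and p = 0.4 at 6 h. The smallest p this design allows is 0.1, so these tests cannot show that the sums were equal. The genes were chosen from these same values, so the p-values lend no weight to the pairing. At 0 h nearly all of each sum was 1 gene, ENSMUSG00000101939 in WT and its partner in FosBcKO. In Egr1KO at 0 h the first sum was 379, 241 and 228 counts.

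The level of the called genes also moved with time. Added up, the 27 higher genes took 469 to 680 CPM of each FosBcKO library and 143 to 213 CPM of each WT library at 6 h. The 16 lower genes took 705 to 1076 CPM in FosBcKO and 712 to 1257 CPM in WT at 6 h, ranges that overlapped. Most of this sum was 1 gene, described next, with 396 to 942 CPM in FosBcKO and 464 to 814 CPM in WT. The overlap of the sums therefore says little about the other lower genes. The single lower gene with 842, 1173 and 717 counts in WT and 346, 537 and 363 in FosBcKO at 0 h had 7568, 8072 and 4872 in WT and 9907, 10902 and 4610 in FosBcKO at 6 h. Its level was thus several times higher in both genotypes at 6 h, and its FosBcKO and WT libraries overlapped there.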
